A study of Danio rerio with 14 samples.

Results

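The RNA of sox10+ cells was set against that of mylz2+ cells within psmb1 mutant zebrafish, so that every library compared carried the same mutation. The members were taken by their labels: 3 libraries of cranial sox10+ cells and 3 libraries of mylz2+ cells from homozygous psmb1 mutant larvae, 6 of the 14 libraries of the series. The other 8 libraries came from pooled wild-type and heterozygous larvae (psmb1+/+ or +/-), 4 for each cell type. They did not enter the main mutant comparison, and served to ask where the cell type difference itself depended on genotype and, in an alternative, to share the estimate of the spread.

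All larvae were raised at 28.5 °C to 72 hours postfertilization (hpf), and each library came from 20 to 25 dissected heads that were dissociated at 37 °C for 30 min and sorted by flow cytometry. The sox10+ libraries came from sox10:kaede+ cells and the mylz2+ libraries from cells of a mylz2 reporter. The sox10 reporter labels the neural crest and cells derived from it, chondrocytes among them, and also the ear, whereas the mylz2 reporter labels fast skeletal muscle. The psmb1 mutation is the hi2939 retroviral insertion in the first intron, and mutants still make psmb1 transcript. The study reports a lower psmb1 level in mutants by qRT-PCR, and strongly impaired proteasome assembly on native gels. For each sox10+ library 7000 cells were sorted, against 1500 cells for each mylz2+ library, so that the number of cells and the cell type cannot be told apart. The pools are titled biological replicates 1, 3 and 4 for both cell types, but the description of mylz2+ replicate 3 and its column in the count table carry the number 2 (M2). The title's number was used, and the replicate block and the correlation of same-numbered libraries depend on it.

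Craniofacial chondrocytes arise from neural crest cells that migrate into the pharyngeal arches, switch on the transcription factor Sox9 and its partners Sox5 and Sox6, and secrete a matrix of type II, IX and XI collagens and aggrecan. Head muscle arises from cranial mesoderm under regulators such as Tbx1, builds sarcomeres of actin, myosin, troponin and tropomyosin, and couples membrane excitation to calcium release. Both programs make large amounts of protein, collagen through the secretory pathway and sarcomeres through cytosolic chaperones. The 26S proteasome, a 20S core with 19S regulators, removes the proteins that fail to fold, and Psmb1 is a subunit of the core.

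The sox10+ libraries held 59318933 to 72034939 counts, against 83947537 to 103563447 counts in the mylz2+ libraries. Counts were scaled by TMM, which sets the scale from the bulk of genes, and levels are given as TMM-scaled CPM, the counts of a gene relative to the scaled total of its library. Differences are log2 fold changes of sox10+ over mylz2+, so that a negative value means lower in sox10+ cells. The 100 most abundant genes took 27.7% to 31.8% of the counts in sox10+ libraries, against 42.7% to 49.2% in mylz2+ libraries. The scale mattered: with plain library totals the middle log2 fold change over all genes was 1.01, against 0.09 with TMM. The part of the most abundant genes in that shift was not tested. Across 17272 genes the Spearman correlation was 0.941 to 0.968 within a cell type and 0.660 to 0.685 between cell types.

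Of 32520 genes in the count tables, 21221 passed the filter on low counts, and 8267 of these (39.0%) differed at an adjusted p under 0.05 by edgeR's quasi-likelihood test. Of all genes tested, 4068 (19.2%) were higher and 4199 (19.8%) were lower in sox10+ than in mylz2+ cells, and 6598 of the 8267 differed at least 2-fold. With library totals 10296 genes (48.5%) differed, 8428 (39.7%) of them higher and 1868 (8.80%) lower in sox10+ cells. The share of calls that were higher in sox10+ cells was thus 49.2% with TMM and 81.9% with library totals. Counts of genes in the lists below are to be read against these shares of all genes. In TMM-scaled CPM the groups did not overlap in 6106 of the 21221 genes with sox10+ higher and in 5878 with sox10+ lower. In bulk libraries, fewer cells of a type and less RNA per cell cannot be told apart.

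Genes are named by the symbols of the NCBI name table. It gives many zebrafish genes the upper-case symbol of their human counterpart, and copies that share a symbol are told apart by their Ensembl identifier. SOX10, the gene whose promoter drives the kaede reporter, had 626, 768 and 775 CPM in sox10+ mutant libraries 1, 3 and 4, against 4.01, 4.28 and 3.15 CPM in mylz2+ mutant libraries 1, 3 and 4. The groups were far apart (log2 fold change 7.57, SE 0.22, adjusted p = 5e-06). MYL11 (ENSDARG00000053254), the fast myosin light chain of the symbol that mylz2 now carries, had 21.0, 182 and 12.2 CPM in sox10+ libraries, against 46113, 36507 and 53588 CPM in mylz2+ libraries (log2 fold change -9.31, SE 1.29, adjusted p = 0.0011). The other gene of that symbol, ENSDARG00000002589, differed by -7.40 (SE 1.07, adjusted p = 0.0013). PSMB1, the mutated gene, was detected in every library, at 69.2, 52.8 and 67.6 CPM in sox10+ cells, against 137, 110 and 135 CPM in mylz2+ cells. The groups did not overlap (log2 fold change -1.01, SE 0.16, adjusted p = 0.0021), but with library totals PSMB1 differed by only -0.08 (adjusted p = 0.68).

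By marker levels a library of each cell type stood apart. Across 17272 genes sox10+ library 3 did not. Its Spearman correlation was 0.952 with sox10+ library 1 and 0.943 with library 4, against 0.941 between libraries 1 and 4. In sox10+ library 3 the summed level of 13 fast muscle marker genes was 727 CPM, against 128 and 56.1 CPM in sox10+ libraries 1 and 4. In mylz2+ library 4 the 13 chondrocyte marker genes summed to 1268 CPM and the 10 erythrocyte marker genes to 329 CPM. The corresponding sums were 688 and 5.78 CPM in mylz2+ library 1 and 637 and 4.30 CPM in mylz2+ library 3. The summed levels of the cell types were nonetheless far apart: the chondrocyte markers summed to 51917, 61713 and 79990 CPM in sox10+ libraries, and the fast muscle markers to 236447, 195057 and 324987 CPM in mylz2+ libraries. Without both libraries that stood apart 6073 of 21488 genes tested differed, 2822 higher and 3251 lower in sox10+ cells. This alternative was chosen after seeing the data. List counts without both libraries are to be read against those numbers. Of 112 genes followed through the alternatives, 7 lost the call without both libraries, 1 gained it and 1 changed sign. Only some of these are given below.

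Genes of the cartilage matrix took more of the sox10+ counts than any other list. The 29 genes of this list took 9.48%, 11.1% and 13.3% of all counts in sox10+ libraries, against 0.0656%, 0.0740% and 0.109% in mylz2+ libraries. Of the 29, all of which were tested, 25 were higher in sox10+ cells, 0 were lower and 4 did not pass the test. The list's median log2 fold change was 6.90, beside 0.09 over all genes, and the fold changes spanned -1.94 to 11.4. The 4 genes that did not pass were a copy of the small proteoglycan FMOD, both copies of MATN3 and a copy of the hypertrophic collagen COL10A1. The other copies of FMOD and COL10A1 were among the 25 higher genes.

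COL2A1 (ENSDARG00000069093), the fibrillar type II collagen of cartilage, had 24835, 28101 and 35907 CPM in sox10+ cells, against 132, 168 and 428 CPM in mylz2+ cells. Every sox10+ library was far above every mylz2+ library (log2 fold change 6.93, SE 0.57, adjusted p = 9.3e-05). Its partners in the fibril lay in the same range: COL11A1 (ENSDARG00000026165) had 5304, 6537 and 8939 CPM in sox10+ cells, against 99.1, 106 and 179 CPM in mylz2+ cells (log2 fold change 5.76, SE 0.37, adjusted p = 3.5e-05). COL11A2 (ENSDARG00000012422) had 4134, 5615 and 7214 CPM in sox10+ cells, against 11.5, 28.7 and 99.8 CPM in mylz2+ cells (log2 fold change 6.92, SE 0.89, adjusted p = 0.00074). The other copy of COL2A1, ENSDARG00000011407, was also higher but the groups lay closer. It had 3930, 5095 and 6856 CPM in sox10+ cells, against 454, 324 and 407 CPM in mylz2+ cells.

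MATN1 (ENSDARG00000030215), the matrix adaptor matrilin 1, had 8305, 9878 and 13657 CPM in sox10+ cells, against 1.80, 16.1 and 122 CPM in mylz2+ cells. The mylz2+ libraries were far from each other, library 4 being the highest, and the log2 fold change of 7.83 (SE 1.53, adjusted p = 0.0054) was 10.21 without that library. COL2A1 (ENSDARG00000069093) and COL11A2 likewise stood at 7.63 and 8.14 without mylz2+ library 4. The part of the cartilage RNA in that library in these differences was not tested. The aggrecan gene acana, whose product holds water in the matrix, had 368, 513 and 580 CPM in sox10+ cells, against 0.398, 1.2 and 1.46 CPM in mylz2+ cells (log2 fold change 8.90, SE 0.54, adjusted p = 3e-05).

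**Figure D1:**
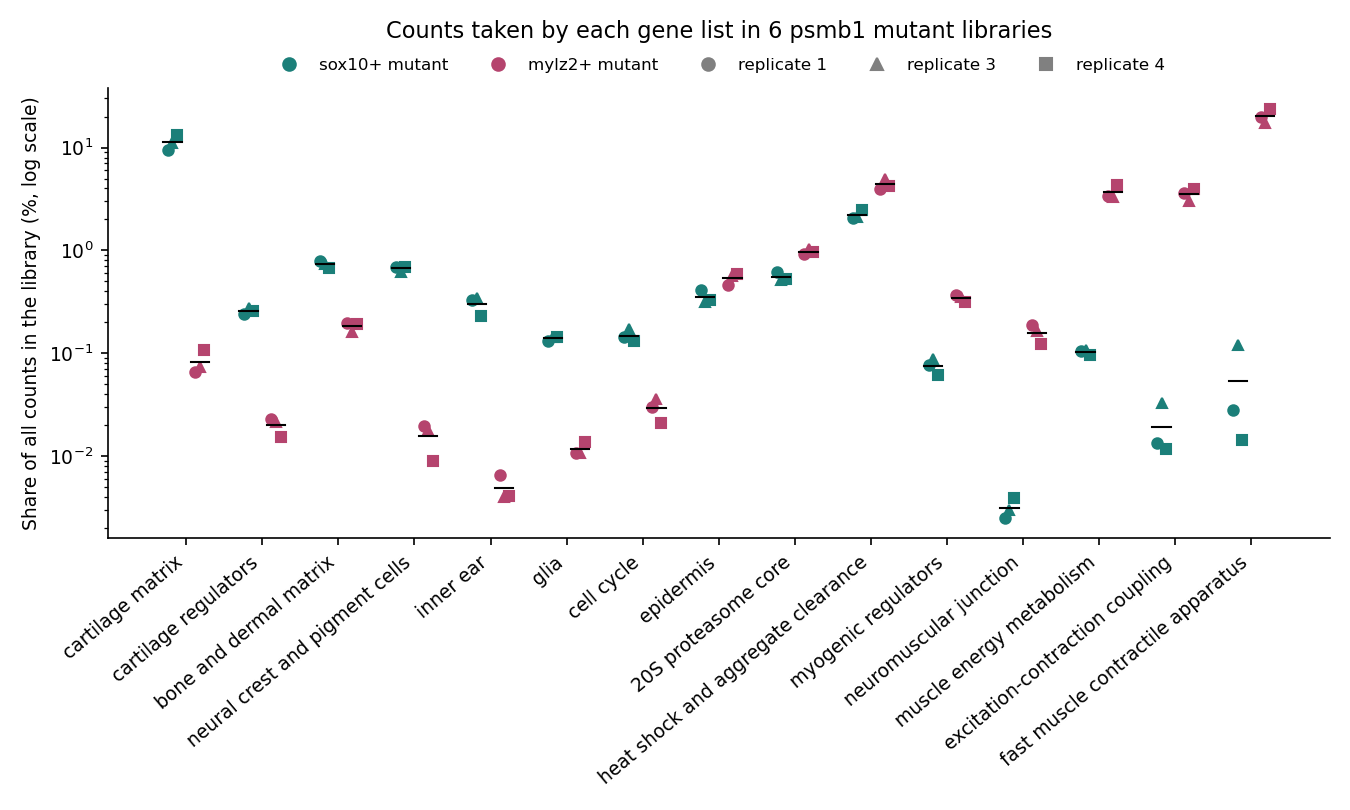
Share of all counts (percent, log scale) taken by the genes of each list in the 3 sox10+ and the 3 mylz2+ psmb1 mutant libraries. Each point is a library, its shape is the replicate number and the bar is the mean. The cartilage matrix list took 9.48% to 13.3% in sox10+ libraries, and the fast muscle contractile list took 17.5% to 23.8% in mylz2+ libraries. The triangle of sox10+ library 3 lies above the other sox10+ points in both the contractile and the excitation-contraction coupling list.

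The regulators that build cartilage were also on the sox10+ side. Of 22 tested, 21 were higher in sox10+ cells, 0 were lower and 1 did not pass, with a median of 3.66, and they took 0.258% ± 0.0168 of the counts in sox10+ cells, against 0.0200% ± 0.00399 in mylz2+ cells (SD, n = 3 each). SOX9 (ENSDARG00000003293), the factor that starts chondrogenesis, had 129, 166 and 172 CPM in sox10+ cells, against 11.7, 13.5 and 16.3 CPM in mylz2+ cells (log2 fold change 3.49, SE 0.19, adjusted p = 2.4e-05). Its partner SOX5 had 276, 302 and 309 CPM in sox10+ cells, against 33.4, 21.2 and 16.1 CPM in mylz2+ cells (log2 fold change 3.65, SE 0.28, adjusted p = 7e-05). SOX6, the second partner, which also restrains the slow fiber program in muscle, had 234, 316 and 323 CPM in sox10+ cells, against 117, 116 and 87.8 CPM in mylz2+ cells. The mylz2+ cells thus held SOX6 at a level nearer that of sox10+ cells (log2 fold change 1.44, SE 0.19, adjusted p = 0.00076).

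FGFR3, the growth factor receptor that limits chondrocyte growth, had 345, 437 and 507 CPM in sox10+ cells, against 92.5, 64.5 and 53.1 CPM in mylz2+ cells (log2 fold change 2.62, SE 0.25, adjusted p = 0.00019). Among well-counted genes with at least 1 count in every library, those with the largest increases lay mostly outside the lists: ccn6, a matricellular protein, at 10.11 (SE 0.71, adjusted p = 5e-05), COCH, the cochlin of the ear and other matrices, at 9.91 (SE 0.52, adjusted p = 1.9e-05), CTHRC1, a secreted collagen triple helix protein, at 9.74 (SE 0.56, adjusted p = 2.6e-05) and fgfbp2b, an FGF-binding protein, at 9.74 (SE 0.44, adjusted p = 1.3e-05). The fifth was acana. For fgfbp2b the sox10+ libraries had 716, 789 and 1057 CPM, against 0.987, 0.587 and 1.46 CPM in mylz2+ libraries, and for COCH 266, 309 and 300 CPM, against 0.207, 0.538 and 0.11 CPM. In each of these genes the groups were without overlap, which the choice of the largest changes required.

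Bone and dermal matrix genes differed less. Of 19 tested of 20, 11 were higher in sox10+ cells, 1 was lower and 7 did not pass, with a median of 1.27. The gene col1a1a, a chain of type I collagen, had 897, 789 and 796 CPM in sox10+ cells, against 352, 249 and 430 CPM in mylz2+ cells (log2 fold change 1.27, SE 0.22, adjusted p = 0.0029). COL1A2, its partner chain, had 1051, 1091 and 930 CPM in sox10+ cells, against 674, 466 and 752 CPM in mylz2+ cells. That difference of 0.70 (SE 0.21, adjusted p = 0.03) did not overlap between groups, but its adjusted p was 0.026 to 0.085 when single libraries were left out, and it lost its call without sox10+ library 1 or 3 or mylz2+ library 1 or 3.

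SPARC, a collagen-binding protein of bone, was 0.80 higher (SE 0.15, adjusted p = 0.0043). PHEX, a peptidase of mineralizing tissue, was the member that went the other way, with 12.1, 31.8 and 5.72 CPM in sox10+ cells, against 125, 117 and 129 CPM in mylz2+ cells (log2 fold change -2.90, SE 0.57, adjusted p = 0.0055). The osteoblast gene spp1 had 2.44, 5.79 and 4.31 CPM in sox10+ cells and 0 counts in every mylz2+ library, which made it at least 280-fold higher against a floor of 3 counts over the mylz2+ group. The osteoblast regulator SP7 was at or below 4.57 CPM in every library and did not pass, and bglap, the osteocalcin gene, had no counts.

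The genes that fold, modify and export collagen were also on the sox10+ side. Of 29 genes tested, 22 were higher in sox10+ cells, 1 was lower and 6 did not pass, with a median of 1.54. SERPINH1 (ENSDARG00000019949), the collagen chaperone Hsp47, had 1187, 1176 and 1451 CPM in sox10+ cells, against 427, 471 and 415 CPM in mylz2+ cells (log2 fold change 1.54, SE 0.16, adjusted p = 0.00025). PLOD3, which hydroxylates and glycosylates collagen lysines, had 445, 430 and 549 CPM in sox10+ cells, against 57.9, 67.8 and 90.4 CPM in mylz2+ cells (log2 fold change 2.72, SE 0.21, adjusted p = 7.1e-05). The lower member was sec24c, a coat protein of vesicles leaving the endoplasmic reticulum (ER), at -0.84 (SE 0.20, adjusted p = 0.012), which library totals turned to 0.06 (adjusted p = 0.85).

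The sox10+ libraries also held RNA of genes known from cells other than chondrocytes. Whether that RNA came from reporter-labelled cells was not tested. Of 22 neural crest and pigment cell genes, 15 were higher in sox10+ cells, 1 was lower and 6 did not pass, with a median of 3.30. Without both libraries that stood apart 11 were higher and 0 lower. The pteridine enzyme gch2, used by yellow pigment cells, had 3883, 3667 and 4334 CPM in sox10+ cells, against 7.57, 80.0 and 7.53 CPM in mylz2+ cells (log2 fold change 6.96, SE 1.12, adjusted p = 0.0022). The mylz2+ library 3 was far above the other mylz2+ libraries for gch2, and without it the difference was 9.02.

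PAX7 (ENSDARG00000070818), a factor of crest and yellow pigment cells and in muscle of satellite cells, had 260, 227 and 280 CPM in sox10+ cells, against 0.843, 3.69 and 0.677 CPM in mylz2+ cells (log2 fold change 7.17, SE 0.72, adjusted p = 0.00023). The purine enzyme pnp4a of iridophores had 116, 85.7 and 181 CPM in sox10+ cells, against 0.271, 0.660 and 1.3 CPM in mylz2+ cells (log2 fold change 7.44, SE 0.61, adjusted p = 9.3e-05). TYRP1 (ENSDARG00000056151), a melanin enzyme, had 138, 64.0 and 125 CPM in sox10+ cells, against 62.8, 18.1 and 10.8 CPM in mylz2+ cells, with the groups just apart and an adjusted p of 0.056. It was at an adjusted p of 0.0032 without mylz2+ library 1.

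The lower member was the crest gene snai1b, with 2.31, 11.0 and 9.15 CPM in sox10+ cells, against 27.3, 23.9 and 18.9 CPM in mylz2+ cells (log2 fold change -1.64, SE 0.53, adjusted p = 0.043). The call was lost with library totals (-0.75, adjusted p = 0.28). Its adjusted p was 0.014 to 0.11 with single libraries left out, and only sox10+ libraries 1 and 3 could be left out with the call kept. FOXD3, an early crest factor looked up after its values were seen, had 45.7, 41.3 and 63.2 CPM in sox10+ cells, against 95, 63.5 and 60.4 CPM in mylz2+ cells, and did not pass (log2 fold change -0.54, SE 0.24, adjusted p = 0.11).

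Of 16 glial genes, 11 were higher in sox10+ cells, 0 were lower and 5 did not pass, with a median of 4.31. The myelin gene mbpb had 153, 150 and 190 CPM in sox10+ cells, against 4.79, 5.17 and 5.58 CPM in mylz2+ cells (log2 fold change 4.99, SE 0.17, adjusted p = 7.9e-06). The myelin genes plp1b and mbpa had 0 counts in every mylz2+ library. The sox10+ libraries had 113, 151 and 151 CPM for plp1b and 94.1, 139 and 153 CPM for mbpa, which made them at least 9254-fold and 8638-fold higher. FABP7 (ENSDARG00000007697), a fatty acid carrier of radial glia, had 151, 145 and 145 CPM in sox10+ cells, against 111, 101 and 168 CPM in mylz2+ cells, and the groups overlapped (adjusted p = 0.45).

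Ear genes were present at high levels. Of 16 tested of 19, 12 were higher in sox10+ cells, 0 were lower and 4 did not pass, with a median of 4.22. Starmaker (stm), which shapes otoliths, had 1716, 1863 and 1319 CPM in sox10+ cells, against 31.3, 4.50 and 17.1 CPM in mylz2+ cells (log2 fold change 6.53, SE 0.73, adjusted p = 0.00039). Otolith matrix protein (otomp) had 215, 187 and 115 CPM in sox10+ cells, against 11.3, 0.562 and 0.549 CPM in mylz2+ cells, with mylz2+ library 1 above the other mylz2+ libraries (log2 fold change 5.38, SE 1.23, adjusted p = 0.011). Without that library it was 8.27. The tectorial gene TECTB was 5.54 higher (SE 1.21, adjusted p = 0.0089). Without both libraries that stood apart, 9 of the 17 ear genes then tested were higher, and otomp and TECTB did not pass.

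Of 13 neuronal genes, 3 were higher in sox10+ cells, 1 was lower and 9 did not pass, with a median of 0.10, close to that of all genes. With library totals 7 were higher and 0 lower, with a median of 1.04, beside 1.01 over all genes. The RNA-binding protein gene ELAVL3 had 112, 125 and 102 CPM in sox10+ cells, against 54.1, 67.5 and 64.4 CPM in mylz2+ cells (log2 fold change 0.86, SE 0.14, adjusted p = 0.0026). The synaptic gene SNAP25 (ENSDARG00000058117) was lower by -0.70 (SE 0.22, adjusted p = 0.038), with adjusted p of 0.021 to 0.12 when single libraries were left out, and library totals turned it to 0.24 (adjusted p = 0.44). The other copy of SNAP25, ENSDARG00000020609, lay the other way. It had 33.5, 31.2 and 39.0 CPM in sox10+ cells, against 9.91, 18.5 and 24.1 CPM in mylz2+ cells. Neuronal markers summed to 273, 262 and 207 CPM in sox10+ libraries, against 146, 197 and 209 CPM in mylz2+ libraries, so that the groups overlapped.

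Tendon and perichondrium genes were split. Of 14 tested, 8 were higher in sox10+ cells, 4 were lower and 2 did not pass, with a median of 1.57. Leaving out both libraries that stood apart gave 3 higher and 2 lower. TGFBI, a matrix adhesion protein, had 525, 540 and 755 CPM in sox10+ cells, against 74.0, 58.5 and 91.8 CPM in mylz2+ cells (log2 fold change 3.02, SE 0.24, adjusted p = 7.6e-05). DCN, the collagen-binding proteoglycan decorin, was 2.36 higher (SE 0.24, adjusted p = 0.00024). The tendon markers SCX and TNMD were also among the 8 higher genes, at low levels. SCX had 9.28, 4.02 and 4.52 CPM in sox10+ cells, against 1.32, 1.61 and 2.08 CPM in mylz2+ cells. TNMD had 23.2, 11.1 and 8.20 CPM in sox10+ cells, against 0.414, 2.47 and 1.88 CPM in mylz2+ cells. XIRP2 (ENSDARG00000071113), an actin-binding protein of muscle ends, had 5.95, 8.45 and 10.9 CPM in sox10+ cells, against 396, 354 and 339 CPM in mylz2+ cells (log2 fold change -5.43, SE 0.26, adjusted p = 1.5e-05). The other copy of XIRP2, ENSDARG00000091090, was also among the 4 lower genes.

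Epidermal genes were found in both sorts. Of 15 tested, 4 were higher in sox10+ cells, 8 were lower and 3 did not pass, with a median of -1.22. With library totals 5 were higher and 5 lower, with a median of -0.26. Without both libraries that stood apart 4 were higher and 5 lower, and krt5 did not pass. Keratins led the lower ones. Of these, krt4 had 987, 615 and 803 CPM in sox10+ cells, against 3849, 4866 and 5875 CPM in mylz2+ cells (log2 fold change -2.60, SE 0.26, adjusted p = 0.00022). The keratin krt5 was at -2.13 (SE 0.45, adjusted p = 0.0076; adjusted p = 0.058 with library totals) and cyt1 at -2.94 (SE 0.21, adjusted p = 4.8e-05). The adhesion genes cdh1 and epcam went the other way, as did a keratin of the list. For epcam the sox10+ libraries had 363, 357 and 357 CPM, against 98.8, 78.2 and 79.1 CPM in mylz2+ libraries (log2 fold change 2.07, SE 0.14, adjusted p = 4.5e-05), and cdh1 was 3.11 higher (SE 0.16, adjusted p = 1.9e-05).

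Of 17 blood and vessel genes tested of 24, 1 was higher in sox10+ cells, 0 were lower and 16 did not pass. The higher one was FLI1, an endothelial and crest factor, with 50.6, 69.1 and 56.2 CPM in sox10+ cells, against 4.28, 3.2 and 2.29 CPM in mylz2+ cells (log2 fold change 4.17, SE 0.29, adjusted p = 4.5e-05). The globin gene HBE1 (ENSDARG00000087390) had 2.07, 0.587 and 3.96 CPM in sox10+ cells, against 1.13, 1.15 and 100.3 CPM in mylz2+ cells, the last being the library with erythrocyte RNA. It did not pass (log2 fold change -3.95, adjusted p = 0.12), and without that library the direction turned to 0.95 (adjusted p = 0.51). Several globin genes share this symbol and near-identical sequence, so that reads may be split among them.

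**Figure D2:**
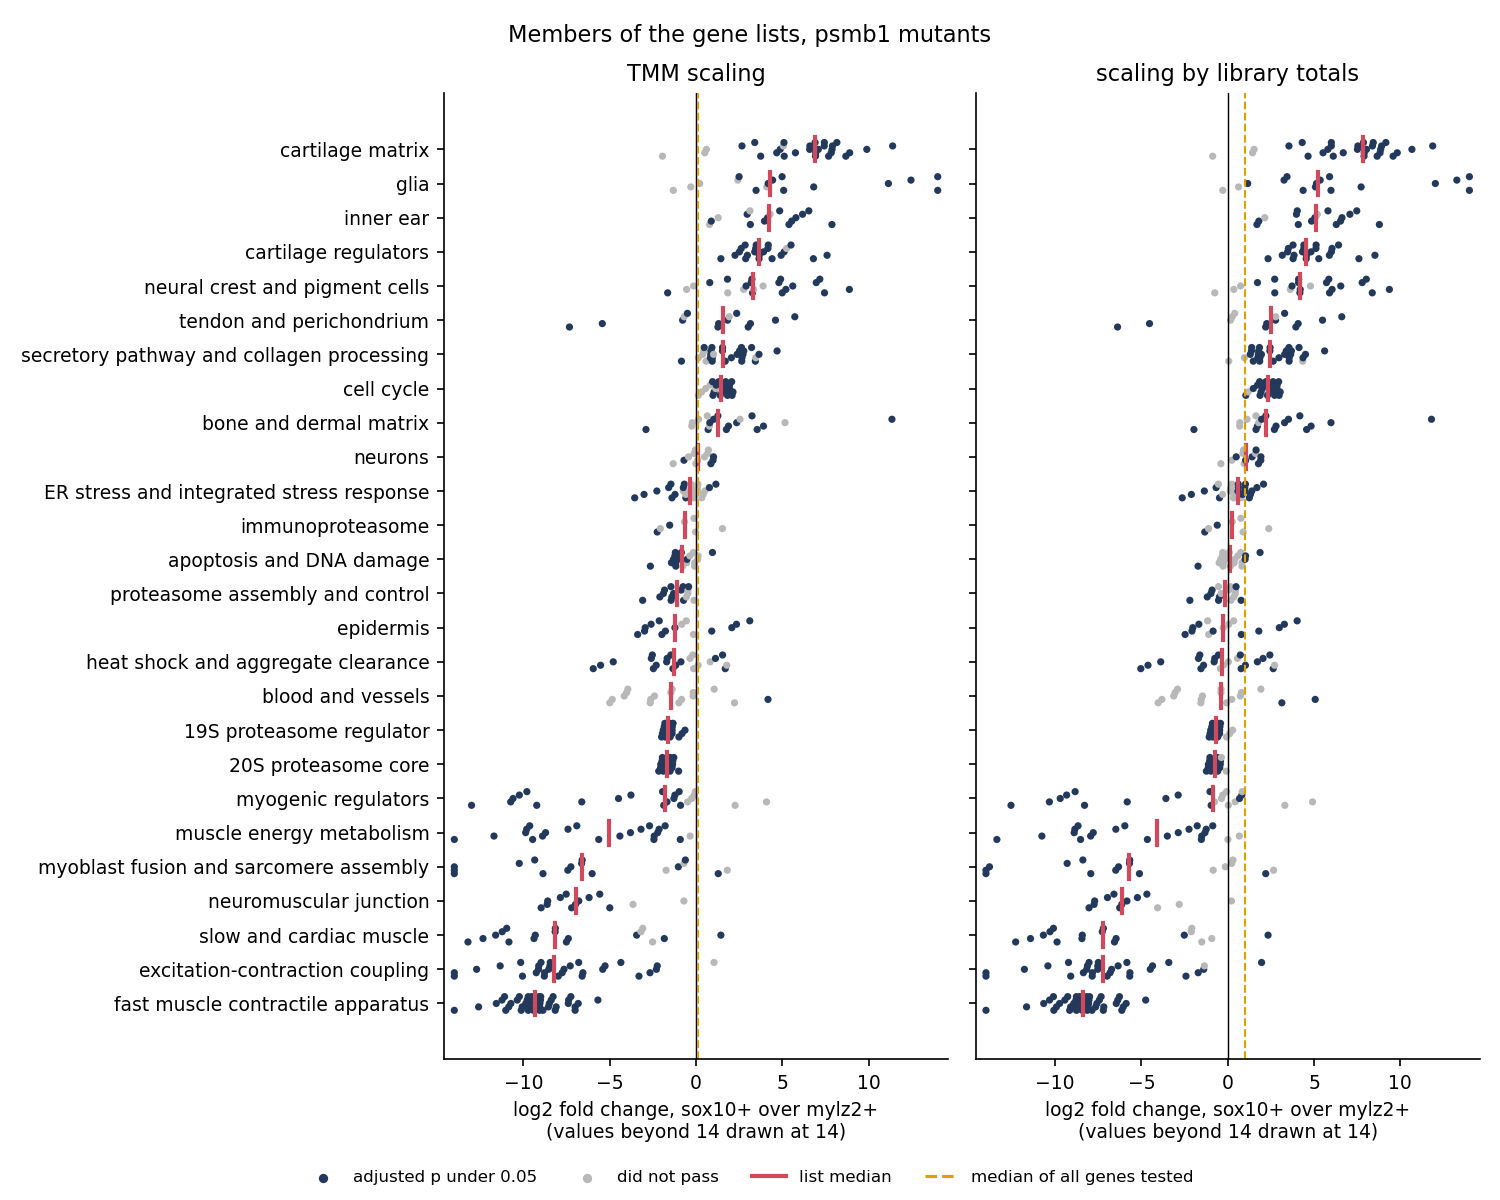
Log2 fold change of sox10+ over mylz2+ psmb1 mutant libraries for each tested gene of each list, with TMM scaling (left) and with library totals (right). Each point is a gene, dark where adjusted p was under 0.05, the red bar is the list median and the dashed line is the median of all genes tested (0.09 at left, 1.01 at right). Fitted values of genes with 0 counts in a whole group depend on the fit's prior count. The contractile list lies wholly below 0 in both panels, whereas the medians of the ER stress list (-0.33 and 0.59) and the apoptosis and DNA damage list (-0.81 and 0.12) change sign between panels.

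In mylz2+ cells the contractile list of fast muscle took the place that cartilage matrix had in sox10+ cells. That list also held sarcomere genes that are not particular to fast fibers, MYBPC1 among them. The 44 genes took 0.0282%, 0.119% and 0.0142% of the counts in sox10+ libraries, against 19.9%, 17.5% and 23.8% in mylz2+ libraries. All 44 were tested and all 44 were lower in sox10+ cells, under both scalings and whichever library was left out, with a median of -9.32 (-10.49 without both libraries that stood apart). The closest of the 44 to equality was still at -5.68.

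The cardiac-type actin actc1b, the main actin of larval fish muscle, had 52.7, 226 and 16.1 CPM in sox10+ cells, against 90604, 82205 and 143577 CPM in mylz2+ cells (log2 fold change -10.07, SE 1.2, adjusted p = 0.00052). The fast myosin heavy chain myhz2 had 0.249, 92.9 and 0.714 CPM in sox10+ cells, against 23921, 16000 and 20859 CPM in mylz2+ cells. The sox10+ library 3 was far above the other sox10+ libraries, and the log2 fold change of -9.34 (SE 2.39, adjusted p = 0.017) was -15.35 (adjusted p = 7.1e-05) without it. Without that library actc1b stood at -11.58 and MYL11 (ENSDARG00000053254) at -11.42.

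Another fast myosin heavy chain, myhb, was among the 5 largest decreases of well-counted genes with at least 1 count in every library, at -11.57 (SE 0.55, adjusted p = 1.5e-05). The others were SRL (ENSDARG00000104587), the calcium store protein sarcalumenin, at -12.71 (SE 0.79, adjusted p = 3.3e-05), the regulatory light chain MYL2 (ENSDARG00000104722) at -12.34 (SE 0.58, adjusted p = 1.5e-05), the Z-disc protein gene myoz3a at -11.74 (SE 0.44, adjusted p = 1e-05) and the light chain myl10 at -11.61 (SE 0.84, adjusted p = 5.4e-05). The sox10+ libraries had between 0.0111 and 0.0427 CPM of myoz3a, against 103, 63.4 and 78.4 CPM in mylz2+ libraries. In sox10+ libraries 3 counts correspond to 0.0320 to 0.0356 CPM. The size of the myoz3a difference thus rests on very few counts in sox10+ cells.

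Slow and cardiac muscle genes were found with the fast ones. Of 18 tested of 21, 14 were lower in sox10+ cells, 1 was higher and 3 did not pass, with a median of -8.15. The higher one was SOX6, also a cartilage regulator. The slow myosin heavy chain smyhc1 had 0.0948, 4.54 and 0 CPM in sox10+ cells, against 4857, 3303 and 2975 CPM in mylz2+ cells (log2 fold change -11.23, SE 2.1, adjusted p = 0.0045). The tropomyosins were unlike each other: TPM2 was at -7.40 (SE 0.33, adjusted p = 1.2e-05), whereas tpm3 had 161, 171 and 181 CPM in sox10+ cells, against 1962, 1587 and 2012 CPM in mylz2+ cells (log2 fold change -3.44, SE 0.17, adjusted p = 1.7e-05).

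Genes that couple excitation to contraction were lower in sox10+ cells for 29 of 30 tested of 31, with 0 higher and a median of -8.21. The exception was a copy of BIN1, which shapes T-tubule membranes in muscle and other membranes elsewhere, at 1.04 without passing. The calcium pump atp2a1 had 7.43, 64.2 and 4.65 CPM in sox10+ cells, against 29035, 20583 and 31314 CPM in mylz2+ cells (log2 fold change -10.05, SE 1.31, adjusted p = 0.00079). The calcium buffer pvalb2 was at -9.11 (SE 1.15, adjusted p = 0.00069). STAC3, an adaptor of the coupling complex, had 0 counts in every sox10+ library and was at least 36695-fold lower.

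At the neuromuscular junction 11 of 13 genes were lower in sox10+ cells, 0 were higher and 2 did not pass, with a median of -6.98. CHRNA1, the alpha subunit of the muscle acetylcholine receptor, had 0.130, 1.02 and 2.24 CPM in sox10+ cells, against 498, 420 and 427 CPM in mylz2+ cells (log2 fold change -8.62, SE 0.92, adjusted p = 0.00031). ACHE, the esterase that ends the signal, was at -5.58 (SE 0.28, adjusted p = 1.7e-05). The groups were wholly separate for all 13 genes, with sox10+ lower, as they were for 5878 of all 21221 genes tested.

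Of 22 myogenic regulators tested, 16 were lower in sox10+ cells, 0 were higher and 6 did not pass, with a median of -1.78 (11 lower and 2 higher with library totals). The myogenic factor MYOD1 had 0.225, 1.39 and 0.0640 CPM in sox10+ cells, against 368, 318 and 320 CPM in mylz2+ cells (log2 fold change -9.23, SE 1.02, adjusted p = 0.00035). SMYD1 (ENSDARG00000091253), a methyltransferase needed for myofibril assembly, was at -9.80 (SE 1.33, adjusted p = 0.00096). MYF6 and MSC had 0 counts in all sox10+ libraries and were at least 1171-fold and 255-fold lower. Regulators shared with other tissues lay closer: MEF2D had 90.4, 121 and 93.8 CPM in sox10+ cells, against 404, 411 and 355 CPM in mylz2+ cells (log2 fold change -1.94, SE 0.16, adjusted p = 0.0001), and EYA1, a transcription cofactor, was at -0.98 (SE 0.23, adjusted p = 0.011; -0.07 and adjusted p = 0.85 with library totals).

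Genes of myoblast fusion and sarcomere assembly were lower for 13 of 17 tested, with 1 higher, 3 not passing and a median of -6.63. The muscle myosin chaperone hsp90aa1.1 had 38.8, 85.6 and 29.5 CPM in sox10+ cells, against 21605, 24806 and 25316 CPM in mylz2+ cells (log2 fold change -8.86, SE 0.54, adjusted p = 3.1e-05). Its partner UNC45B was at -6.60 (SE 0.31, adjusted p = 1.5e-05). The higher gene was DOCK1, a Rac activator used in fusion and in migrating cells, at 1.29 (SE 0.18, adjusted p = 0.0012). A copy of KLHL40, and lmod3, which stabilize thin filaments, had 0 counts in all sox10+ libraries and were at least 8387-fold and 7514-fold lower.

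Muscle energy genes were lower for 21 of 22 tested, with 0 higher and a median of -5.02. The creatine kinase gene ckma had 9.21, 50.1 and 5.45 CPM in sox10+ cells, against 14834, 14070 and 22488 CPM in mylz2+ cells (log2 fold change -9.63, SE 1.09, adjusted p = 0.00041). GAPDH (ENSDARG00000043457), a glycolytic enzyme present in more than one copy in fish, was at -9.46 (SE 0.54, adjusted p = 2.7e-05). FBP2, which runs glycolysis backwards, was the gene that did not pass, at -0.34.

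Subunits of the proteasome differed between the cell types in 1 direction. All 16 genes of the 20S core and all 23 of the 19S regulator were lower in sox10+ than in mylz2+ mutant cells, with medians of -1.66 and -1.61 and, in each gene, groups that did not overlap. None of these calls was lost when a single library was left out. Of all 21221 genes tested, 5878 were lower in sox10+ cells without overlap. As a share of all counts, a measure with no TMM factor, the 20S list took 0.551% ± 0.0558 in sox10+ libraries, against 0.971% ± 0.0526 in mylz2+ libraries, and the 19S list 0.847% ± 0.0620 against 1.34% ± 0.0925 (SD, n = 3 each). With library totals 14 of 16 and 20 of 23 remained lower, 0 were higher, and the medians were -0.73 and -0.69. The same direction was found in wild-type/heterozygous larvae, where all 16 and all 23 were lower in sox10+ cells with TMM, with medians of -2.14 and -2.19. Of all 20241 genes tested in those larvae, 4440 were higher and 4486 lower in sox10+ cells. Library totals were not tried in that contrast.

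PSMB7, the trypsin-like catalytic subunit, had 637, 489 and 574 CPM in sox10+ cells, against 2135, 2312 and 2601 CPM in mylz2+ cells (log2 fold change -2.05, SE 0.18, adjusted p = 0.00012; -1.13 with library totals). PSMB5, the chymotrypsin-like subunit, was at -1.29 (SE 0.14, adjusted p = 0.00037), and with library totals at -0.37 (adjusted p = 0.072). The alpha ring subunit PSMA3 had 473, 429 and 471 CPM in sox10+ cells, against 1639, 1744 and 1990 CPM in mylz2+ cells (log2 fold change -1.97, SE 0.16, adjusted p = 7.9e-05). PSMB1 itself, given above, was the subunit of the core nearest to equality.

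In the regulator, PSMD1, its scaffold subunit, had 858, 816 and 893 CPM in sox10+ cells, against 2679, 2565 and 2663 CPM in mylz2+ cells (log2 fold change -1.62, SE 0.15, adjusted p = 0.00014), and the ATPase PSMC6 was at -1.78 (SE 0.15, adjusted p = 9.3e-05). Of 16 genes of proteasome assembly and control, 12 were lower, 0 were higher and 4 did not pass, with a median of -1.08. With library totals 6 were lower and 2 higher. VCP, the ATPase that unfolds ubiquitylated proteins, had 1184, 1127 and 1144 CPM in sox10+ cells, against 2793, 2874 and 2832 CPM in mylz2+ cells (log2 fold change -1.3, SE 0.14, adjusted p = 0.00038; adjusted p = 0.068 with library totals).

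POMP, the maturation factor of the core, was at -1.45 (SE 0.13, adjusted p = 0.00015). PSME4 (ENSDARG00000018742), an activator that binds the core in place of the 19S particle, was at -0.72 (SE 0.15, adjusted p = 0.0061), and library totals turned it to 0.19 (adjusted p = 0.39). Of 7 immunoproteasome genes tested of 8, 2 were lower and 5 did not pass. These were the activator subunits PSME1, with 58.3, 49.7 and 51.0 CPM in sox10+ cells, against 131, 165 and 163 CPM in mylz2+ cells (log2 fold change -1.53, SE 0.15, adjusted p = 0.00019, not passing when all 14 libraries shared 1 fit), and PSME2, at -2.25 (SE 0.24, adjusted p = 0.0003). The inducible catalytic subunit PSMB10 had 15.5, 9.95 and 9.21 CPM in sox10+ cells, against 16.0, 20.0 and 18.9 CPM in mylz2+ cells, and did not pass (adjusted p = 0.09).

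**Figure D3:**
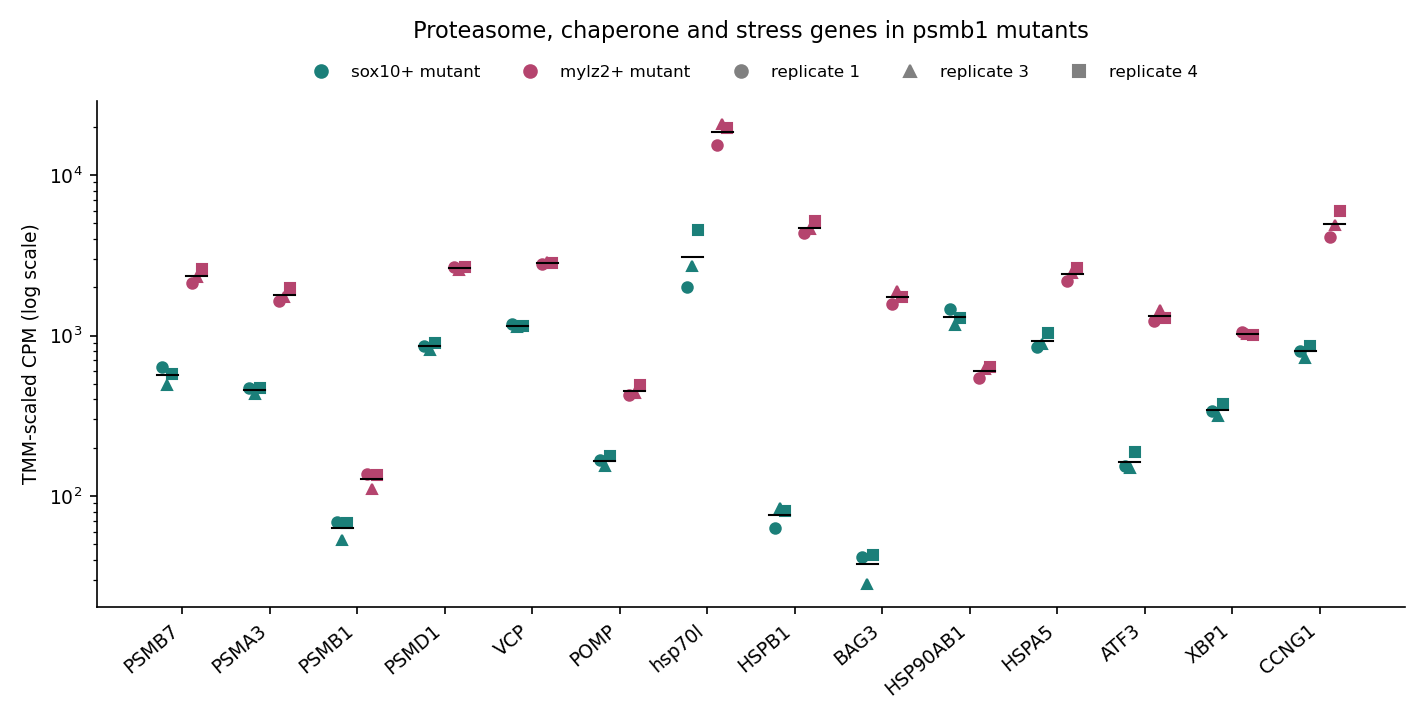
TMM-scaled CPM (log scale) of proteasome, chaperone and stress genes in the 3 sox10+ (left of each pair) and the 3 mylz2+ (right) psmb1 mutant libraries, with the replicate number as the shape and the mean as a bar. HSP90AB1 is higher in sox10+ libraries and the other genes shown are lower in sox10+ libraries without overlap. The vertical distance is widest for HSPB1 and BAG3.

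Heat shock and aggregate clearance genes took 2.22% ± 0.230 of the counts in sox10+ cells, against 4.39% ± 0.529 in mylz2+ cells (SD, n = 3 each). Of 22 tested of 23, 13 were lower in sox10+ cells, 3 were higher and 6 did not pass, with a median of -1.26. With library totals 10 were lower and 7 higher. All cells were dissociated at 37 °C, above the temperature of the larvae, and the part of that step in these levels was not tested. The inducible hsp70l had 2019, 2719 and 4536 CPM in sox10+ cells, against 15424, 20886 and 19515 CPM in mylz2+ cells (log2 fold change -2.59, SE 0.33, adjusted p = 0.00074; -1.69 with library totals), and hsp70.3, another inducible Hsp70 gene, was at -1.70 (SE 0.20, adjusted p = 0.00052). Inducible Hsp70 genes of the fish are near-identical copies, so that reads may be split among them.

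The constitutive HSPA8 (ENSDARG00000068992) was at -1.17 (SE 0.18, adjusted p = 0.0016), and with library totals at -0.25 (adjusted p = 0.21). HSP90AB1, the general cytosolic Hsp90, went the other way, with 1467, 1157 and 1288 CPM in sox10+ cells, against 542, 617 and 633 CPM in mylz2+ cells (log2 fold change 1.13, SE 0.16, adjusted p = 0.0012). SERPINH1, given above, was also in this list and higher. The muscle-rich chaperones HSPB1 and BAG3, chosen after their values were seen, were the farthest apart. HSPB1 had 63.4, 84.0 and 80.6 CPM in sox10+ cells, against 4354, 4586 and 5171 CPM in mylz2+ cells (log2 fold change -5.95, SE 0.22, adjusted p = 1e-05), and BAG3, which sends damaged sarcomere proteins to autophagy, had 41.6, 28.5 and 42.6 CPM, against 1581, 1887 and 1730 CPM (log2 fold change -5.53, SE 0.24, adjusted p = 1.1e-05).

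Of 25 genes of ER stress and the integrated stress response tested of 26, 10 were lower in sox10+ cells, 2 were higher and 13 did not pass, with a median of -0.33, which was 0.59 with library totals (5 lower, 12 higher). HSPA5, the ER chaperone BiP, had 852, 880 and 1030 CPM in sox10+ cells, against 2178, 2438 and 2636 CPM in mylz2+ cells (log2 fold change -1.39, SE 0.17, adjusted p = 0.00052; -0.47 with library totals). The stress factor ATF3 had 154, 150 and 188 CPM in sox10+ cells, against 1235, 1444 and 1281 CPM in mylz2+ cells (log2 fold change -3.01, SE 0.17, adjusted p = 2.4e-05). XBP1, which drives genes of the secretory pathway, had 340, 316 and 374 CPM in sox10+ cells, against 1055, 1018 and 1012 CPM in mylz2+ cells (log2 fold change -1.58, SE 0.14, adjusted p = 0.00013).

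The sox10+ cells thus held less HSPA5 and XBP1 RNA while holding more of the collagen-processing genes named above. CANX, the lectin chaperone calnexin, had 628, 618 and 675 CPM in sox10+ cells, against 870, 758 and 731 CPM in mylz2+ cells and did not pass (log2 fold change -0.30, SE 0.14, adjusted p = 0.14), and library totals turned it to 0.61 (adjusted p = 0.015). The disulfide isomerase PDIA6 was higher at 0.78 (SE 0.15, adjusted p = 0.0054).

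Of 20 apoptosis and DNA damage genes, 11 were lower in sox10+ cells, 1 was higher and 8 did not pass, with a median of -0.81. Library totals left 1 lower and 3 higher and a median of 0.12. CCNG1, a cyclin induced by DNA damage, had 806, 723 and 862 CPM in sox10+ cells, against 4085, 4895 and 5968 CPM in mylz2+ cells (log2 fold change -2.64, SE 0.21, adjusted p = 7.5e-05), and it stayed lower with library totals (-1.72, adjusted p = 0.00017). GADD45B (ENSDARG00000013576), a stress sensor, was higher at 0.95 (SE 0.16, adjusted p = 0.0031). The other copy of GADD45B, ENSDARG00000027744, had a higher mean level and was not called higher in sox10+ cells.

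Cell cycle genes were on the sox10+ side. Of 22 tested, 17 were higher in sox10+ cells, 0 were lower and 5 did not pass, with a median of 1.46. With 22 tested, 12 were higher when both libraries that stood apart were left out. PCNA, the clamp of the replication fork, had 147, 172 and 126 CPM in sox10+ cells, against 37.0, 37.1 and 42.2 CPM in mylz2+ cells (log2 fold change 1.94, SE 0.16, adjusted p = 8.5e-05). The replication helicase subunit MCM2 was at 1.58 (SE 0.24, adjusted p = 0.0018). The proliferation marker mki67 had 46.7, 78.8 and 74.3 CPM in sox10+ cells, against 29.5, 42.8 and 24.3 CPM in mylz2+ cells (log2 fold change 1.05, SE 0.28, adjusted p = 0.02), and it passed without sox10+ library 1 or mylz2+ library 3 but not without any other single library (adjusted p = 0.012 to 0.067). CCND1, a cyclin of the start of the cycle, did not pass at 0.56 (SE 0.21, adjusted p = 0.067).

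The same contrast was made in wild-type/heterozygous larvae, and the difference between the 2 contrasts was tested over all 14 libraries. TMM factors were then set over all 14, so that the CPM of a mutant library in this test is not the same number as in the comparison of mutants above. Of 23232 genes tested, 301 (1.3%) had a cell type difference that depended on genotype by edgeR's quasi-likelihood test. The interaction term, the mutant difference minus the wild-type/heterozygous difference, was positive in 195 genes (0.839%) and negative in 106 (0.456%). At an unadjusted p under 0.05 there were 3264 genes, and DESeq2 called 1328. Of the 296 called genes tested in both genotypes, 170 had a smaller difference of the same sign in mutants, 49 a larger one and 77 a difference of opposite sign. Among 534 list genes tested, 18 were called. The number of calls was 102 to 443 with single libraries left out, and 102 without mylz2+ mutant library 3. With library totals 299 genes were called, 94 with a positive and 205 with a negative term. The balance of direction thus depended on the scale.

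No cartilage matrix, 20S, 19S, heat shock, ER stress, apoptosis, DNA damage or cell cycle gene was among the 18 called. With 1.3% of all genes called, 0 calls does not set these lists apart or show equal differences. Their median terms were -0.92 for cartilage matrix, 0.47 for 20S, 0.46 for 19S and 0.002 for heat shock. For ER stress, apoptosis and DNA damage, and cell cycle they were -0.10, -0.16 and 0.21, beside -0.03 over all genes. Of the 22 myogenic regulators 5 were called, all with a positive term. TBX1, a regulator of head muscle and arch development, had 48.1, 64.8 and 66.0 CPM in sox10+ mutant libraries, against 74.2, 53 and 64.9 CPM in mylz2+ mutant libraries. In wild-type/heterozygous larvae it had 55.1, 53.1, 66.9 and 59.7 CPM in sox10+ cells, against 223, 260, 235 and 279 CPM in mylz2+ cells. The cell types thus overlapped in mutants and did not in wild-type/heterozygous larvae (interaction 1.98, SE 0.23, adjusted p = 0.0013), and TBX1 passed in every alternative run.

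They also included six4b and six4a, which encode homeodomain factors of muscle precursors, and MEF2A, with interactions of 1.81 (adjusted p = 0.025), 1.91 (adjusted p = 0.048) and 1.05 (adjusted p = 0.043). TBX1 and these 3 genes were picked after their values were seen. For six4b the sox10+ mutant libraries had 16.2, 12.4 and 7.93 CPM, against 52, 37.5 and 28.3 CPM in mylz2+ mutant libraries. Its wild-type/heterozygous libraries had 9.14, 6.45, 9.94 and 9.37 CPM in sox10+ cells, against 87.8, 101, 97.1 and 108 CPM in mylz2+ cells. The genes six4b, six4a and MEF2A lost the call without both libraries that stood apart, and of the 6 mutant libraries left out singly, six4b lost it with 4 (adjusted p = 0.013 to 0.069), six4a with 5 (0.029 to 0.12) and MEF2A with all 6 (0.066 to 0.11).

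Among slow muscle genes tpm3 had 145, 152 and 162 CPM in sox10+ mutant cells, against 1763, 1426 and 1808 CPM in mylz2+ mutant cells, and 104, 121, 141 and 131 CPM in wild-type/heterozygous sox10+ cells, against 4572, 6350, 5265 and 5633 CPM in mylz2+ cells. The mylz2+ mutant libraries lay below the mylz2+ wild-type/heterozygous ones (interaction 2.01, SE 0.26, adjusted p = 0.0025), and tpm3 passed in every alternative run. The adhesion gene epcam had a larger difference in mutants, with 326, 318 and 321 CPM in sox10+ mutant cells, against 148, 130, 127 and 148 CPM in sox10+ wild-type/heterozygous cells, while the mylz2+ mutant libraries had 88.8, 70.297 and 71.1 CPM, against 77.7, 77.0, 111 and 82.5 CPM in mylz2+ wild-type/heterozygous libraries (interaction 1.40, SE 0.22, adjusted p = 0.0099).

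PSME1 had 52.4, 44.2 and 45.8 CPM in sox10+ mutant cells, against 117, 148 and 146 CPM in mylz2+ mutant cells. In wild-type/heterozygous larvae it had 0.636, 0.293, 0.0119 and 0 CPM in sox10+ cells, against 14.3, 22.0, 13.4 and 10.1 CPM in mylz2+ cells. In both cell types every mutant library was above every wild-type/heterozygous library, and the cell type difference was smaller in mutants (interaction 4.45, SE 0.96, adjusted p = 0.039). This call was lost when any single mutant library was left out (adjusted p = 0.069 to 0.11) and with library totals (adjusted p = 0.058).

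PTCH1, the Hedgehog receptor and target, chosen after its values were seen, was the 1 cartilage regulator with an interaction. It had 32.7, 41.8 and 36.7 CPM in sox10+ mutant cells, against 5.49, 5.30 and 4.39 CPM in mylz2+ mutant cells. In wild-type/heterozygous larvae it had 32.0, 27.2, 17.6 and 24.1 CPM in sox10+ cells, against 7.82, 15.5, 13.1 and 13.5 CPM in mylz2+ cells. The difference was larger in mutants (interaction 1.86, SE 0.36, adjusted p = 0.024), but the call was lost with 4 of the 6 mutant libraries left out singly (adjusted p = 0.043 to 0.064) and without both libraries that stood apart (adjusted p = 0.15).

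Pigment genes XDH and ltk had negative terms. XDH, a purine and pteridine enzyme, had 54.1, 52.8 and 64.0 CPM in sox10+ mutant cells, against 0.887, 0.868 and 1.79 CPM in mylz2+ mutant cells, and 41.6, 42.2, 53.2 and 44.7 CPM in sox10+ wild-type/heterozygous cells, with 0 counts in all mylz2+ wild-type/heterozygous libraries (adjusted p = 0.00059). The receptor kinase gene ltk of iridophores had 5.48, 6.14 and 4.74 CPM in sox10+ mutant cells, against 0.701, 0.912 and 0 CPM in mylz2+ mutant cells, and 31.1, 39.2, 21.7 and 15.1 CPM in sox10+ wild-type/heterozygous cells, against 0, 0, 0.0212 and 0 CPM in mylz2+ wild-type/heterozygous cells (adjusted p = 0.016). For ltk the sox10+ mutant libraries lay below all sox10+ wild-type/heterozygous libraries, whereas for XDH these groups overlapped.

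**Figure D4:**
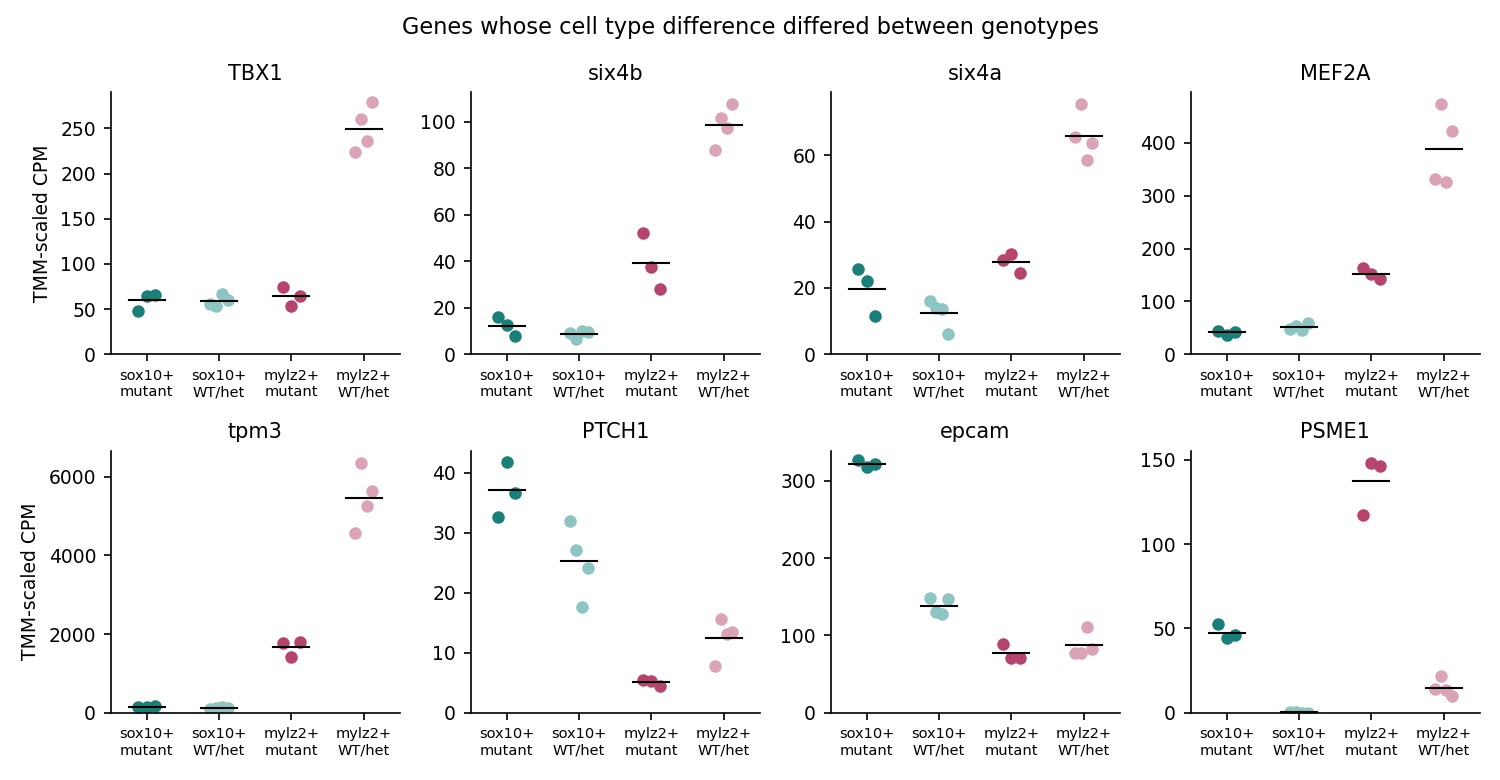
TMM-scaled CPM (linear scale) of genes with a genotype-dependent cell type difference, in sox10+ mutant, sox10+ wild-type/heterozygous, mylz2+ mutant and mylz2+ wild-type/heterozygous libraries from left to right. Each point is a library (3 per mutant group, 4 per wild-type/heterozygous group) and the bar is the mean. For TBX1, six4b, six4a, MEF2A and tpm3 the mylz2+ mutant libraries lie below the mylz2+ wild-type/heterozygous libraries, and for PSME1 they lie above them.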

How the data were processed

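Per the labels and the study's methods, cDNA was made with the SMART-Seq HT kit and libraries with Nextera XT, neither of which marks strand, and the authors used STAR and the GRCz11 build to align reads. What was deposited is the raw read count of each gene, 1 column per library; the counting tool and annotation release are not given in the sources used here. The 2 tables were joined on the Ensembl identifier, 0 columns of per-sample values were left unused, and there were no columns of the authors' own comparisons.

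Groups came from the labels. The main test was edgeR 4.0.16 (R 4.3.3): TMM factors, filterByExpr, glmQLFit and glmQLFTest on the 6 mutant libraries, Benjamini-Hochberg adjustment over all genes tested, and a call at an adjusted p under 0.05. SE is the log2 fold change divided by the root of the F statistic. The interaction used all 14 libraries in 4 groups. DESeq2 1.42.0, other factors and filters, a replicate block, thinned counts and left-out libraries were alternatives. On simulated counts with 200 genes changed 4-fold, edgeR recovered 126 with 4 false calls (20616 genes tested) and DESeq2 139 with 67 in the mutant comparison. For the interaction edgeR recovered 74 with 2 false calls (22690 genes tested). Apart from the 200 changed genes, all simulated libraries shared the same relative levels. The false calls thus do not measure error in the data, where 39.0% of genes differed between cell types.

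The members of the comparison and the 27 gene lists were chosen with earlier results of these data known. Of 528 list symbols, 514 matched the NCBI name table, giving 545 genes. List medians were the same with genes at 0 counts set at their bound. Named genes were the reporter and mutated genes, up to 4 members of each list with the highest mean CPM, up to 3 called members against the list's direction, the 5 largest changes in each direction among called genes whose higher group averaged 100 counts or more, with at least 1 count in every library and no overlap between groups, and the 3 largest interaction terms of list members in each direction. Values of 2 list genes are not reported here, though fits and list counts include them. Most genes outside the rule are said to be chosen after their values were seen. STAC3, MYF6, MSC, KLHL40 and lmod3, named for 0 counts in sox10+ libraries, were also outside it and chosen by their values. FMOD, MATN3, COL10A1, SP7, BIN1 and FBP2, named as not passing, and bglap, named for having no counts, were outside it too. So was the SNAP25 copy ENSDARG00000020609, named because it lay opposite to the other copy. SCX, TNMD and the COL2A1 copy ENSDARG00000011407 were likewise outside it and named after their values were seen.

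Library totals were 59318933 to 103563447 counts, so that 3 counts, the floor, correspond to 0.0320 to 0.0549 TMM-scaled CPM. Intervals and floors cover counting error only. Replicates are labelled as biological, but p-values measure only the spread between these pools, and 3 against 3 libraries cannot reach an exact permutation p below 0.1. The numbers were not used as pairs, because they are not known to pair the libraries. Deviations of same-numbered libraries correlated at -0.014, 0.0086 and 0.0050 across 17272 genes, against -0.036 to 0.033 for different numbers. With deviations taken within 3 libraries and 1 number in doubt, these values cannot decide whether libraries were paired. Without strand, reads of overlapping antisense genes cannot be told apart. The 2 cell types were sorted and counted apart, so that any difference in preparation goes with cell type. No genome or sequence table was used here, and no sequences or coordinates are printed.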

Additional observations from a re-analysis of the deposited data

Results flagged for a closer look

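For 18 list genes the difference between sox10+ and mylz2+ cells in mutants was not the same as in wild-type/heterozygous larvae by the interaction test. Terms are the mutant difference minus the wild-type/heterozygous difference, on the log2 scale. Positive ones included PSME1 (4.45), tpm3 (2.01), TBX1 (1.98), six4a (1.91), PTCH1 (1.86), six4b (1.81), RYR3 (1.59), epcam (1.40), MYBPC1 (1.26) and MEF2A (1.05). The negative ones were BMP1 (-2.73), EGR2 (-2.42), ELAVL4 (-1.58) and ELAVL3 (-0.94). The fitted terms of spp1 (8.80), XDH (-9.11) and ltk (-8.54) involve groups with 0 or near 0 counts, depend on the prior count and are not sizes. That of PSME1 also rests on a group near 0, the sox10+ wild-type/heterozygous cells, and ran from 4.05 to 5.56 with single libraries left out.

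TBX1, tpm3 and XDH passed in every alternative run, with adjusted p at most 0.019, 0.020 and 0.0066. The call of epcam was lost only without both libraries that stood apart (adjusted p = 0.072), and that of ltk without mylz2+ mutant library 3 (adjusted p = 0.051) and at the stricter threshold. EGR2, ELAVL3, MEF2A, PSME1 and spp1 lost the call whichever single mutant library was left out. Of the 6 mutant libraries, BMP1 lost it with 5 left out singly (adjusted p = 0.0073 to 0.076), ELAVL4 with 5 (0.041 to 0.14), MYBPC1 with 5 (0.023 to 0.076), six4a with 5, and RYR3 (0.01 to 0.090), PTCH1 and six4b with 4. Leaving out both libraries that stood apart also ended the calls of ELAVL4 (adjusted p = 0.14) and MYBPC1 (adjusted p = 0.17).

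Genes not described above were as follows. The collagen protease gene BMP1 (ENSDARG00000028071) had 23.4, 20.9 and 25.6 CPM in sox10+ mutant cells, against 5.22, 5.21 and 1.77 CPM in mylz2+ mutant cells, and in wild-type/heterozygous larvae 33.1, 25.8, 26.9 and 32.7 CPM in sox10+ cells, against 0.965, 0.656, 0.403 and 1.09 CPM in mylz2+ cells. ELAVL3 had 100.5, 111 and 91.5 CPM in sox10+ mutant cells, below the 194 to 245 CPM of sox10+ wild-type/heterozygous cells. The glial factor EGR2, chosen after its values were seen, had 9.96, 12.9 and 13.3 CPM in sox10+ mutant cells, against 15.3, 39.8, 43.7 and 38.7 CPM in sox10+ wild-type/heterozygous cells. MYBPC1 and RYR3, muscle genes also chosen after their values were seen, had 491 to 765 and 45.4 to 82.3 CPM in mylz2+ mutant cells, against 1600 to 1951 and 93.5 to 117 CPM in mylz2+ wild-type/heterozygous cells.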

How the results depend on the processing

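The number of genes that differed between sox10+ and mylz2+ mutant cells was within 1.5 times 8267 under every alternative run (6073 to 10296; 6848 to 7858 with single libraries left out) except an adjusted p under 0.01, which left 5456. The share of calls higher in sox10+ cells was 49.2%, 52.5% with upper-quartile factors and 81.9% with library totals. The 301 interaction calls became 1328 under DESeq2, 553 where all libraries had to reach 10 counts, 81 without both libraries that stood apart, 48 at an adjusted p under 0.01 and 102 to 443 with single libraries left out. Library totals gave 299 interaction calls, 94 positive and 205 negative, against 195 positive and 106 negative with TMM. A block for the replicate number (pairing the libraries) gave 6778 genes and 137 interaction calls, the cause of which was not tested, and of 112 genes 108 kept their side of the threshold; COL1A2, SNAP25 and snai1b lost it and TYRP1 gained it. Over all alternatives, 9 of the 112 genes changed sign at least once. Library totals turned six4a to 0.44, PSME4 to 0.19, FOXD3 to 0.36, TBX1 to 0.82, CANX to 0.61, EGR2 to 0.63, SNAP25 to 0.24 and sec24c to 0.062. With single libraries left out TBX1 ran from -0.23 to 0.034 and HBE1 from -4.69 to 0.95 (without mylz2+ library 4). Without both libraries that stood apart HBE1 was at 1.40. Of list counts, 74 of 884 moved by over 1.5 times, 16 of them with library totals. Low genes are limited by depth: 3 counts are the floor for any value given as 0.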

Other observations

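Other groups of genes were looked up after their values were seen, and are to be read against the 19.2% higher and 19.8% lower among all genes. Of 63 nuclear-encoded genes of the respiratory chain and ATP synthase tested, 56 were lower in sox10+ than in mylz2+ cells and 2 were higher, with a median of -2.28 (55 lower and 3 higher with library totals), and they took 0.812% of the counts in sox10+ cells, against 2.28% in mylz2+ cells. ATP5F1B, a catalytic subunit of ATP synthase, had 725, 551 and 672 CPM in sox10+ cells, against 3713, 3485 and 4257 CPM in mylz2+ cells (log2 fold change -2.56, adjusted p = 6e-05 by edgeR). COX4I2, a paralog of the cytochrome oxidase subunit COX4I1, was among the 2 higher, with 18.6, 21.5 and 21.4 CPM in sox10+ cells, against 0.430, 2.78 and 0.750 CPM in mylz2+ cells (3.95, adjusted p = 0.0033), whereas COX4I1 was lower at -1.99 (adjusted p = 7.5e-05). Of 55 mitochondrial ribosomal protein genes 54 were lower, with a median of -1.98, and 45 were lower with library totals. Of 13 mitochondrially encoded genes of these complexes 3 were lower and 0 higher, a share near that of all genes, and with library totals 0 were lower and 7 higher, so that their direction depended on the scale. Of 81 cytosolic ribosomal protein genes 72 were lower and 0 higher with a median of -0.97, which became 19 lower and 7 higher with library totals.

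Of 19 immediate early genes, which respond to handling as well as to signals in the tissue, 14 were lower in sox10+ cells and 0 higher, with a median of -1.07 (7 lower and 4 higher with library totals). FOS (ENSDARG00000031683) had 424, 375 and 508 CPM in sox10+ cells, against 1677, 1825 and 1773 CPM in mylz2+ cells (-2.01, adjusted p = 0.00011). The part of the dissociation at 37 °C in these levels was not tested. Of 35 Hox genes tested of 48, 13 were higher in sox10+ cells and 1 was lower, with a median of 2.91. HOXB3 had 16.1, 15.8 and 18.7 CPM in sox10+ cells, against 2.80, 2.71 and 3.47 CPM in mylz2+ cells (2.49, adjusted p = 0.00029), and hoxa2b, which marks the second pharyngeal arch, had 8.64, 13.9 and 11.1 CPM, against 1.64, 0.440 and 2.78 CPM (2.80, adjusted p = 0.012).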
